A study of Mus musculus with 8 samples.

Results

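The report covers the core of the Notch pathway, 10 genes of the 37273 in the GENCODE annotation of mm9. They are the receptors Notch1, Notch2, Notch3 and Notch4, the ligands Jag1 and Dll4, the nuclear effector Rbpj, and the target genes Hes1, Hey1 and Hey2. The genes were chosen by name, and all 10 were found in the annotation. BRG1, the ATPase of SWI/SNF chromatin-remodelling complexes, was profiled by ChIP-seq in 8 libraries from injured hearts of adult C57BL/6 mice aged 10 to 12 weeks, with 2 BRG1 ChIP and 2 input libraries in each of 2 groups. Strain and age are those of the labels, whereas the methods name C57BL/6J and give an older age range for infarcted mice. In the Tβ4-primed group, thymosin β4, an actin-binding peptide, was injected intraperitoneally each day for a week at 12 mg per kg, and in the PBS-primed group the vehicle was given in its place. All mice then had the left anterior descending coronary artery tied off permanently, received the same agent on days 0 and 2, and gave their hearts on day 4. The list used here holds 524614 regions, labelled as BRG1 against input of the Tβ4-primed hearts, and PBS-primed regions were not analysed here.

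The list gives a start and an end for each region without a height, a score or a p-value, and its regions carry no mark of either duplicate. Depth is therefore unknown, no value below has a replicate error, and no test between samples was possible. The regions cover 25.8% of the 21 chromosomes, so a region near a gene is common. The chromatin came from hearts with all their cell types, so a region cannot be assigned to a cell type, and region positions cannot check the tissue label.

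Notch receptors span the cell membrane and are cut when a ligand such as JAG1 or DLL4 on a neighbouring cell pulls on them. The released intracellular domain enters the nucleus and binds RBPJ, the DNA-binding protein of the pathway, together with Mastermind co-activators. HES1, HEY1 and HEY2 are basic helix-loop-helix repressors whose genes are direct targets of this complex. In the heart, Notch signalling is known for its part in endocardium, valve and coronary vessel formation and in the fate of cells that leave the epicardium.

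The promoters of the 3 target genes and of Rbpj are shown first because RBPJ recognises the letters TGGGAA and because they differ in whether a region covers them. Each stretch runs from 250 bases before to 50 bases after the start of the transcript with the longest coding sequence, read from mm9 on the strand of the gene. Capitals mark TGGGAA or, where the match is on the opposite strand, TTCCCA. The stretches lie at chr16:30065176-30065475 for Hes1, chr3:8666990-8667289 for Hey1, chr10:30562558-30562857 for Hey2 and chr5:53981204-53981503 for Rbpj.
Hes1 promoter: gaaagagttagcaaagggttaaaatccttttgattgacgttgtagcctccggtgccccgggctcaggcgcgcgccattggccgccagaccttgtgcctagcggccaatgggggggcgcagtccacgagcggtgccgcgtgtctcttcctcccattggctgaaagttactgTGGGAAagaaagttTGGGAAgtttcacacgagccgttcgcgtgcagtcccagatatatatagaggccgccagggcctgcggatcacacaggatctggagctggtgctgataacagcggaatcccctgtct
Hey1 promoter: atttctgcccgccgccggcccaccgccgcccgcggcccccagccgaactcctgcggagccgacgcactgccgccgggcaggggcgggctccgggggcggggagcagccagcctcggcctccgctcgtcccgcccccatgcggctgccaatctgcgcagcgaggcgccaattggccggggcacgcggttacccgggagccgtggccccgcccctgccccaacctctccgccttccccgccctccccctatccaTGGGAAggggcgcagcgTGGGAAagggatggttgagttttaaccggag
Hey2 promoter: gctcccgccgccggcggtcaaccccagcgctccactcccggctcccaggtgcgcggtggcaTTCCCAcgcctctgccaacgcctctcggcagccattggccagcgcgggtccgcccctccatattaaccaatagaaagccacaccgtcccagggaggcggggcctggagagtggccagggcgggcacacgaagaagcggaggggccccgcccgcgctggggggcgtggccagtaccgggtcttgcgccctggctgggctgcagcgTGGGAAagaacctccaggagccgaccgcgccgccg
Rbpj promoter: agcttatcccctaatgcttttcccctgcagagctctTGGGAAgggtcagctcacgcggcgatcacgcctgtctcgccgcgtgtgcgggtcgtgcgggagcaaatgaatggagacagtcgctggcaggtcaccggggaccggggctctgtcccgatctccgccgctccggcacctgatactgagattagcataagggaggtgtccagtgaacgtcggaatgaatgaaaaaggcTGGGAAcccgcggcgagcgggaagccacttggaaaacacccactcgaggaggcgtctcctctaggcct

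Each of these 4 promoters held 2 matches to TGGGAA, searched on both strands. Among all 22367 protein-coding promoters of the same length, taken at the 5′ end of the gene, 24.3% held at least 1 match and 3.42% held at least 2. The longer form GTGGGAA, which contains TGGGAA, was present in the promoters of Hes1 (1 match), Hey1 (1 match) and Hey2 (2 matches), against 5.88% of protein-coding promoters. In Hes1 the matches lay from -80 to -75 and from -66 to -61 bp relative to the start, both on the strand of the gene. None of the Hes1 or Hey1 promoter bases was covered by a region, all 300 bases of the Hey2 promoter were covered, and 166 of 300 were covered at Rbpj. Of the other members, Notch3 held 1 match and Notch1, Notch2, Notch4, Jag1 and Dll4 held none. A match is a description of the letters and not a measured site.

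A region each of Hes1, Dll4 and Notch3 is shown next, picked by hand from those in their windows. The Jag1 promoter is shown with them, since it lay inside a region as the Hey2 promoter did. Each picked region holds the letters marked in it, so their presence there is not a result. The Dll4 region nearest the start of the gene and the Hes1 region in exon 4 held no TGGGAA. In the Hes1 and Dll4 regions, capitals mark TGGGAA or TTCCCA. In the Jag1 promoter they mark CACGCG or its reverse CGCGTG, the letters of a box bound by HES and HEY proteins, and in the Notch3 region they mark TGANTCA, the site of AP-1 factors. The Hes1 intronic region is chr16:30066420-30066689, the Dll4 exonic region chr2:119153820-119154119 and the Notch3 intronic region chr17:32298750-32299049. The Dll4 region is named for exon 4, which holds 109 of its bases, and the rest lie in intron 4. The Jag1 promoter is chr2:136942331-136942630, and all are written on the strand of the gene.
Hes1 intronic region: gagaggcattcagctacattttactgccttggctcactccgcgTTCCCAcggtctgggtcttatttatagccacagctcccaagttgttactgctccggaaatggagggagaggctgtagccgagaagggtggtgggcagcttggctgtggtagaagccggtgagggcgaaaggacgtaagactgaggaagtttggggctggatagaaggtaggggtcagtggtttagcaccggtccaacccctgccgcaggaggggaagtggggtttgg
Dll4 exonic region: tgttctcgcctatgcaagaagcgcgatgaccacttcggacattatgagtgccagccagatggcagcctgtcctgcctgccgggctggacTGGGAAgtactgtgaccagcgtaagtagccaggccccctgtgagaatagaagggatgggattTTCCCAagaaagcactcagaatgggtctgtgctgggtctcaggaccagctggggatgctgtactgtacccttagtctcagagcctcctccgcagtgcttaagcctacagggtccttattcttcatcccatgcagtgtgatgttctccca
Notch3 intronic region: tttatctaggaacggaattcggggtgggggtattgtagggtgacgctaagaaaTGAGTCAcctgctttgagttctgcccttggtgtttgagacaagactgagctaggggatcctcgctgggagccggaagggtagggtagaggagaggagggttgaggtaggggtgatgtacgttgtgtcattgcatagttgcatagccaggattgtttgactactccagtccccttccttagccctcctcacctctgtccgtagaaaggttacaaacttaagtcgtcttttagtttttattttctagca
Jag1 promoter: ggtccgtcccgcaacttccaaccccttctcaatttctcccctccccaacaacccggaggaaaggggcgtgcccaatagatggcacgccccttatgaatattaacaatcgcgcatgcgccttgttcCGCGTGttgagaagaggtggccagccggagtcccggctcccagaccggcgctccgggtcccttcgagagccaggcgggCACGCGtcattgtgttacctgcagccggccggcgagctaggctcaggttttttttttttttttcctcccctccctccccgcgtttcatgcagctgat

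The Hes1 region lay in intron 3 and held 1 match to GTGGGAA, a string present in 4.79% of the 46085 regions of 270 bp in the list and in 4.98% of the 38036 regions of 300 bp. The Dll4 region, over coding exon 4 and intron 4, held 2 matches to the shorter TGGGAA. At least 1 match was found in 23.6% of regions of 300 bp and 22.5% of regions of 270 bp. The share of regions with 2 or more was not computed. Of the 130 regions in the windows of the members, 56.2% held TGGGAA and 20.8% held the longer form, but these are of all lengths and cannot be set beside the shares for short regions. Per kb, TGGGAA occurred 1.08 times in them and 0.94 times in the regions of the list. In the promoters CACGCG matched 2 times in those of Jag1, Hes1 and Rbpj, 1 time in Notch2, Dll4 and Hey1 and not in the other 4, and 11.6% of protein-coding promoters held it at least once. The TGANTCA match of Notch3 was of a kind found in 7.96% of regions of 300 bp, and TGANTCA was not denser in the 130 regions of the members (0.30 per kb) than in the list (0.33 per kb).

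The main measure was the covered share, which is the percentage of bases of a window that lie in regions. Over the gene body with its 5-kb flanks, the share ran from 11.1% at Notch3 to 73.7% at Hey2, with a median over the 10 genes of 26.9%, beside 25.2% for protein-coding genes and 24.0% for all annotated genes. Each member was set beside the 200 annotated genes nearest to it in length, taken from genes of every type and not only protein-coding ones. By this measure 6 of 10 members lay above the median of their own comparison genes, Hey2 lay above the upper quartile and Notch3 below the lower quartile. The remaining 8 genes lay between the quartiles, so as a group the members sat near the centre of genes of their size.

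**Figure D1:**
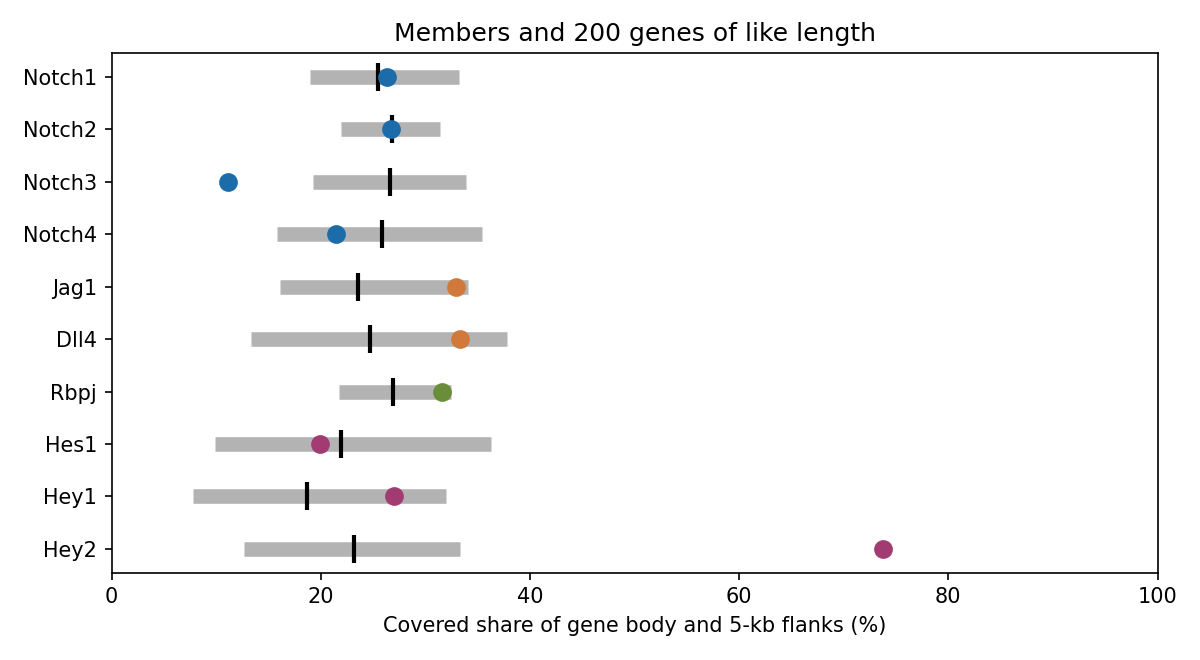
Covered share of the gene body and 5-kb flanks for each member (points) in percent, with the median (black line) and the quartiles (grey bar) of the 200 genes nearest in length. Hey2 at 73.7% stands to the right of its bar and Notch3 at 11.1% to the left of its bar.

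Within 5 kb of the transcription start site (TSS), here the 5′ end of the gene, 9 of 10 members had a region, beside 90.5% of protein-coding genes. A region lay over the TSS itself in 2 of 10, Jag1 and Hey2, beside 24.2% of protein-coding genes. Joining regions within 500 bp of each other raised this count to 3, but no share of protein-coding genes with joined regions is given to set beside it. All 10 had a region in the gene body, beside 84.1%. The counts without joining are near the background of the list, and the positions of the regions say more about the members than their presence.

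Around the TSS the receptors among the members had lower covered shares than the other 6 members. The 4 receptors had 0%, 9.30%, 2.25% and 12.0% of the 10-kb window covered at Notch1, Notch2, Notch3 and Notch4, and none of them reached the median of its genes of like length. The ligands had 37.8% at Jag1 and 22.2% at Dll4, Rbpj had 44.4%, and the targets had 24.6% at Hes1, 34.2% at Hey1 and 76.3% at Hey2. These 6 genes all lay above the medians of their comparison genes, and the highest receptor was below the lowest of them. With 4 receptors and a single list this is a description, with no test of the difference. The same roles among the other pathway genes did not follow it: the 5 further ligand genes had a median of 5.10% around the TSS, 4 of them below the lower quartile of genes of like length, and the 6 further HES and HEY genes had 11.8%. It also depended on the window and on other settings. With 10 kb on each side of the TSS, Notch4 rose to the 65.5th percentile of its comparison genes. Jag1, Hes1 and Hey1 fell below the 50th in that window. With 2 kb Hes1 fell to the 31.5th percentile and Notch2 rose from the 33.25th to the 50th. Dll4 fell to the 49th percentile with every protein-coding transcript start and to the 40.25th without regions shorter than the median length, and Notch4 rose to the 58th by regions per kb.

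**Figure D2:**
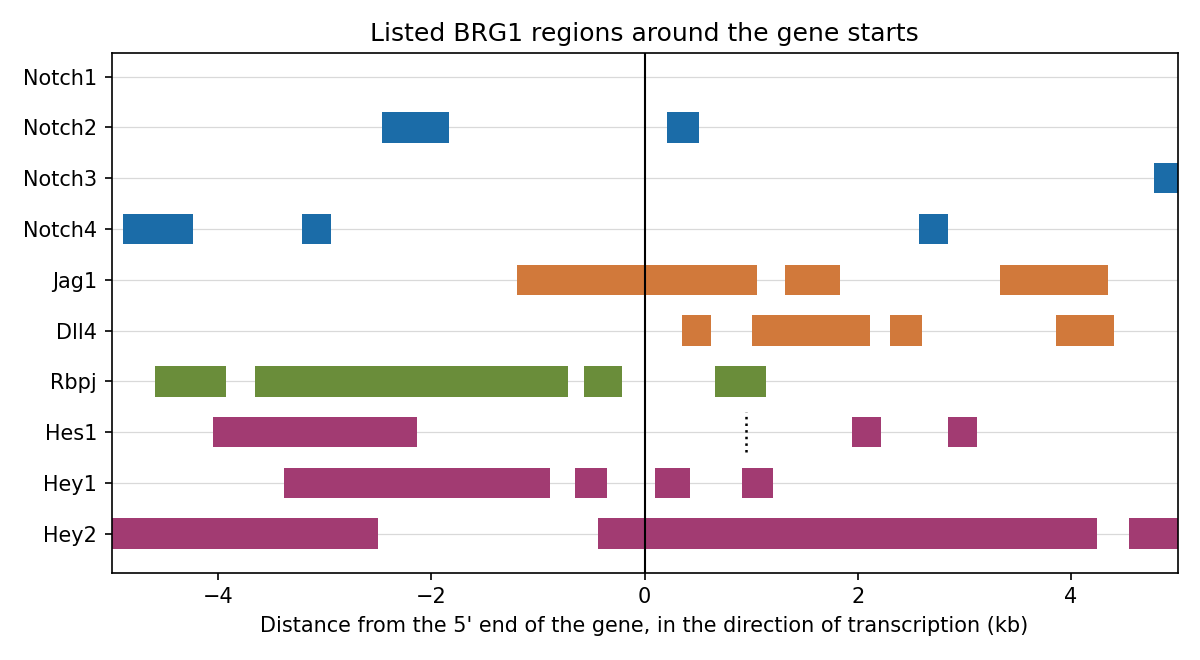
Regions (bars) within 5 kb of the 5′ end of each gene, in kb, drawn in the direction of transcription, with receptors in blue, ligands in orange, Rbpj in green and targets in purple. The dotted line marks the start of the longest coding transcript of Hes1, and only Jag1 and Hey2 have a bar over 0.

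Among the receptors, Notch1 on chr2:26313423-26372183 had no region within 5 kb of the 5′ end of the gene. Its TSS lay in a gap of 23400 bp between regions, with the nearest region 7747 bp upstream and 15654 bp downstream. The transcript with the longest coding sequence begins 12841 bp inside the gene, and around that start 13.2% of 10 kb was covered by 2 regions, the highest share of the 4 receptors at such starts, with the nearest 2813 bp downstream in intron 2. No annotated start of a protein-coding transcript of Notch1 carried a region. Further along, a region of 5280 bp covered exons 15 to 21 and another of 2640 bp covered exons 22 to 26. Exons of Notch1 were 38.8% covered and introns 18.2%. The whole window was 26.3% covered by 14 regions, which placed Notch1 at the 54th percentile of genes of like length. At the 3′ end, regions of 5130 and 3060 bp lay also in the overlapping lincRNA 0610009E02Rik, and a region of 660 bp in exon 34 lay partly in it. None of these regions can be given to either gene.

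Notch2, on chr3:97817461-97954290, is the longest member at 136830 bp and held 30 regions in its window. Its TSS lay in a gap of 2040 bp, with a GC-rich region of 300 bp (69.3% G and C, 38 CpG) beginning 209 bp downstream at the end of exon 1. Most of the covered bases were intronic. Intron 1, of 33956 bp, was 43.3% covered, introns 1 and 2 each held a region of 5820 bp, and intron 5 held 1 of 5280 bp. The region in intron 2 carried 6 matches to GTGGGAA and the equally long region in intron 1 carried 2. Beyond intron 10 the body held 3 short regions of 240 to 300 bp. Introns as a whole were 28.2% covered and exons 9.68%. The window share of 26.8% lay at the 48.5th percentile of genes of like length.

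Notch3, the receptor of vascular smooth muscle cells, had the lowest covered share of the members over the gene body and over the body with its flanks. Its body on chr17:32257765-32303825 was 4.83% covered, against a median of 26.5% and a lower quartile of 17.5% among genes of like length. The window of gene body and flanks lay at the 7th percentile (exact binomial 95% interval 3.88 to 11.5, which covers only the count of comparison genes). Only 6 regions touched it. The longest, 4290 bp, covered the end of exon 33 and the downstream flank and lay within the overlapping lincRNA Gm17276, as did the regions of 540 and 630 bp in intron 31, so these 3 cannot be given to either gene. The 5 others measured 210 to 630 bp, and the nearest to the TSS began 4776 bp downstream in intron 2, while upstream no region lay within 10435 bp.

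Notch4, an endothelial receptor gene on chr17:34701213-34725448, was 21.5% covered over its window by 10 regions, at the 38th percentile. Its longest region, 3240 bp, ran over exons 9 to 12. The TSS lay in a gap of 5520 bp, with regions of 270 bp on both sides, 2944 bp upstream and 2577 bp downstream. Counted as regions per kb, Notch4 stood at the 75th percentile, and 5 of its 10 regions were 330 bp or shorter.

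Jag1 encodes a ligand whose loss of function causes Alagille syndrome, which affects the heart and vessels. The gene, on chr2:136907192-136942380, carried a region of 2250 bp from -1199 to 1050 bp around its TSS, with 62.7% G and C and 175 CpG, the most of any region of the members. That region covered exon 1, intron 1 and the start of exon 2. A second long region of 4080 bp lay over exons 4 and 5. In all 18 regions met the window, at 0.40 per kb, which put Jag1 at the 98.25th percentile of genes of like length for the number of regions but at the 73rd for covered share.

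Dll4, the ligand of arterial and tip endothelial cells, lies on chr2:119151520-119161698. Its upstream 5 kb were free of regions, and 44.4% of the 5 kb downstream of the TSS was covered. The first region began 350 bp after the TSS and covered 270 bp of exon 1, intron 1 and exon 2, where it was 70.0% G and C. Part of this region lay also in the overlapping lincRNA Gm14207, so it cannot be given to either gene. A region of 1110 bp followed over exon 3 and the introns beside it, then the region of 300 bp over exon 4 shown above. Introns of Dll4 were 46.2% covered and exons 13.7%. With 10 regions at 0.50 per kb, Dll4 stood at the 93rd percentile for number and the 67th for covered share, and 3 of those regions lay downstream of the gene.

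Rbpj, on chr5:53947018-54048684, has its longest coding transcript beginning 34436 bp inside the annotated gene. Upstream of that start a region of 5760 bp with 157 CpG ended 85 bp short of it, and the next region followed 2436 bp downstream. The 10 kb around this start were 61.2% covered. Around the 5′ end of the gene 44.4% was covered, 79.2% on the upstream side and 9.60% on the downstream side. The 3′ end was covered by regions of 3450 bp over exons 9 to 11 and 5250 bp over the end of exon 11 and the flank, so that exons of Rbpj were 75.5% covered and introns 24.3%. The window held 27 regions and lay at the 71.5th percentile.

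**Figure D3:**
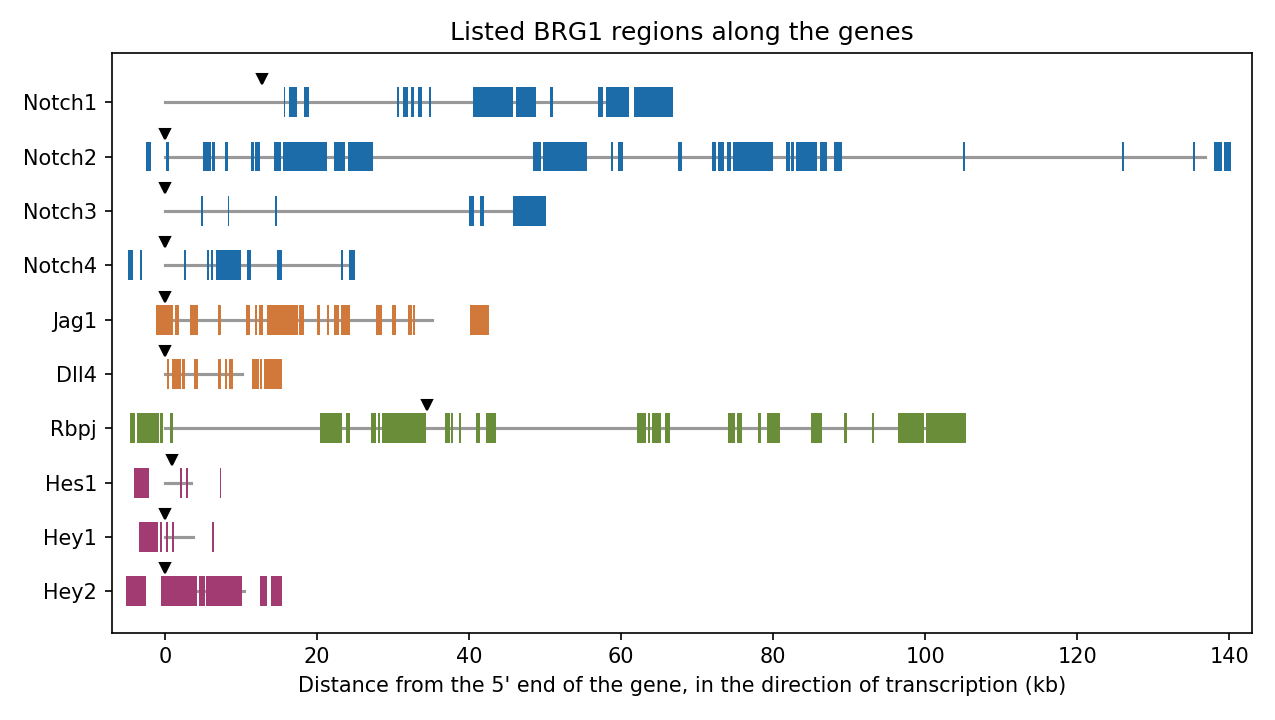
All regions (bars) that meet the gene body or its 5-kb flanks, in kb from the 5′ end of each gene in the direction of transcription. Grey lines are the gene bodies and black triangles the start of the longest coding transcript, which lies 12841 bp inside Notch1 and 34436 bp inside Rbpj.

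Hes1, on chr16:30064470-30067882, is the shortest member at 3413 bp and had 4 regions in its window. A region of 1920 bp lay from -4050 to -2131 bp relative to the 5′ end of the gene. The other regions were short, of 270 bp in intron 3, 270 bp in exon 4 over coding sequence and 210 bp downstream. The start of the coding transcript lay in a gap of 4080 bp, 3087 bp after the upstream region and 994 bp before the intronic region. The TGGGAA pair printed above lay in this gap. Hes1 stood at the 45th percentile of genes of like length for the window and at the 57.5th around the TSS, and the window percentile ranged from 29 with 2-kb flanks to 66.5 by regions per kb.

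Hey1, on chr3:8663362-8667039, had 5 regions in its window. Of these, a region of 330 bp over exon 1 and intron 1 began 100 bp downstream, and a region of 2490 bp lay upstream, from -3380 to -891 bp. Upstream coverage over 5 kb was 55.8% and downstream coverage 12.6%.

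Hey2, a gene of ventricular muscle and arterial endothelium on chr10:30552165-30562607, was covered almost from end to end. Of its body 93.0% lay in regions, against a median of 20.6% and an upper quartile of 38.3% among the 200 genes of 10277 to 10616 bp. The window share of 73.7% was higher than in all 200 of them (exact binomial 95% interval of the percentile 98.2 to 100). A region of 4680 bp ran from -432 to 4247 bp around the TSS and covered exons 1 to 3, a region of 690 bp followed in intron 3, and a region of 4770 bp covered intron 4 and exon 5. A region of 2550 bp lay upstream, from -5052 to -2503 bp. The coverage of Hey2 came from long regions and not from many. Its 6 regions had a median length of 2010 bp, against 600 bp for the whole list, and by regions per kb it stood at the 66.5th percentile.

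Over all members the regions were of ordinary size. The 130 regions had a median of 600 bp, the same as the list, and 18.5% were 2 kb or longer, beside 19.3% in the list. Their G and C content was 46.8%, beside 47.8% in the uncovered bases of the same windows and 41.4% over the regions of the list. In the uncovered bases of their windows TGGGAA occurred 1.15 times per kb. GTGGGAA occurred 0.26 times per kb in the members' regions, 0.25 times in the uncovered bases and 0.18 times over the regions of the list. The TTNNGCAA string of C/EBP factors occurred 0.32 times per kb in the members' regions, 0.41 times in the uncovered bases and 0.51 times over the regions of the list. The members' regions and the list thus differed in G and C content as well as in these densities, and the part of the one in the other was not tested.

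Beyond the genes themselves the surroundings differed. Flanks of 5 to 25 kb on both sides were 57.7% covered at Hes1, the 98.9th percentile of protein-coding genes, and 50.5% covered at Notch1, the 96.7th percentile. The median of protein-coding genes was 24.1%. Jag1 had 41.6% in these flanks, whereas Notch3 had 12.3% and Hey2 30.6%. At 25 to 100 kb Hey2 had 26.9% and the protein-coding median was 25.3%, so the dense coverage of Hey2 was local to the gene and its near flanks. Rbpj was the reverse of Hes1, with 76.55% of its 5-kb flanks covered and 19.8% of those from 5 to 25 kb.

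**Figure D4:**
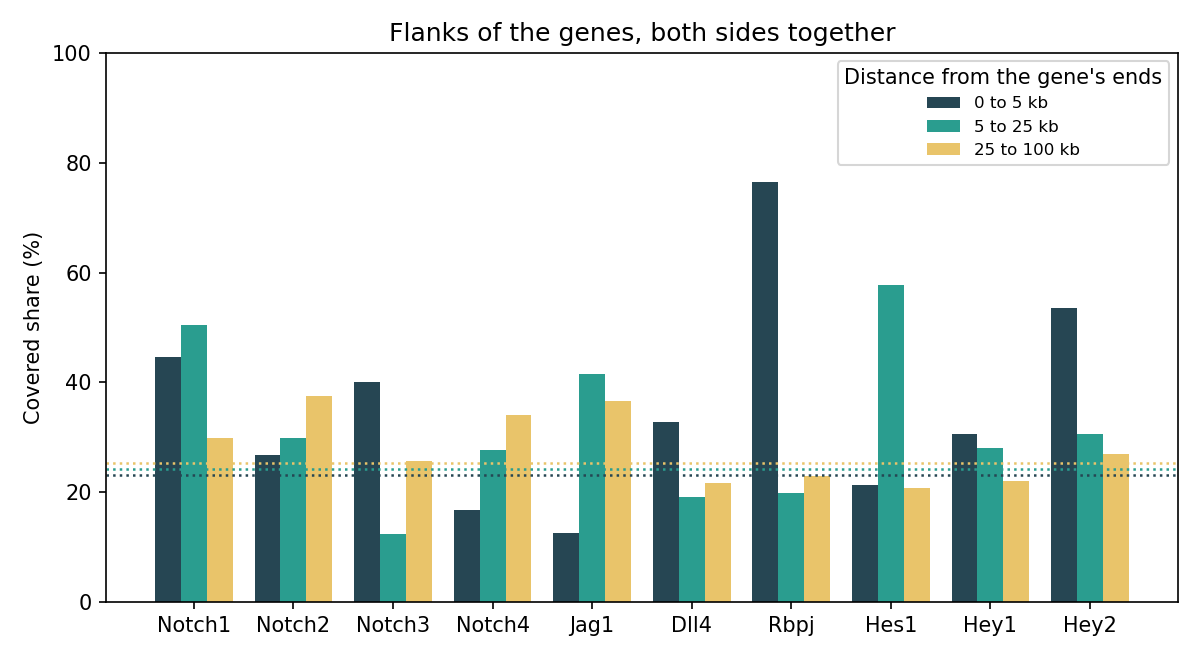
Covered share in percent of the flanks on both sides of each member, at 0 to 5, 5 to 25 and 25 to 100 kb from the gene's ends (bars). Dotted lines are the medians of protein-coding genes in the same colours, and the bars of Hes1 and Notch1 at 5 to 25 kb and of Rbpj at 0 to 5 kb stand highest for those distances.

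Assigning each region to its closest annotated gene, as the study did, gave Rbpj 47 regions, Notch2 38, Jag1 32, Notch1 17, Hey1 16, Hey2 16, Hes1 15, Notch4 12, Dll4 10 and Notch3 6. The median of protein-coding genes was 8. These numbers were not adjusted for gene length or for the distance to the next gene. A region equally close to several genes, or overlapping them, was counted for each, as with Notch3 and the lincRNA Gm17276. At Jag1, 15 of the 32 regions lay beyond 5 kb and the farthest 84.8 kb away, and at Hes1, 11 of 15 lay beyond 5 kb, up to 29.1 kb. Dll4 and Notch3 had none beyond 5 kb.

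The other 45 genes of the pathway, listed by role, had a median window share of 24.8%, beside 25.2% for protein-coding genes. Around the TSS their median was 16.8%, beside 22.2%. There 15 of 45 lay below the lower quartile of genes of like length and 13 above the upper quartile, with 21 above the median. A region lay over the TSS in 11 of 45 (24.4%), beside 24.2% of protein-coding genes. Within 5 kb, 39 of 45 (86.7%) had a region, beside 90.5%. Both counts are near the background of the list. For the window share, 23 of 45 lay above the median of genes of like length. The highest shares were found at Hes6 (97.2%), a HES family gene that opposes HES1, at Lfng (59.5%), the fringe glycosyltransferase that modifies receptors, and at Mib1 (58.7%), the ubiquitin ligase needed for ligand endocytosis. The lowest were found at the ligand gene Dll3 (0%), at Dlk1 (1.02%), a non-canonical ligand gene, and at the HES family gene Hes3 (3.25%).

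By role, the 6 further HES and HEY genes had a median of 12.4%, between 3.25% and 97.2%. Hes6 and Hes7 (45.3%) lay above the upper quartile of genes of like length, and the other 4 genes had 14.8% or less. The 5 further ligand genes had a median of 40.6%, the 5 receptor glycosyltransferases 31.6%, the 10 inhibitors and turnover factors 31.8%, the 9 genes of receptor cleavage 24.8%, the 6 nuclear cofactors 22.7% and the 4 genes of ligand endocytosis 19.2%.

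**Figure D5:**
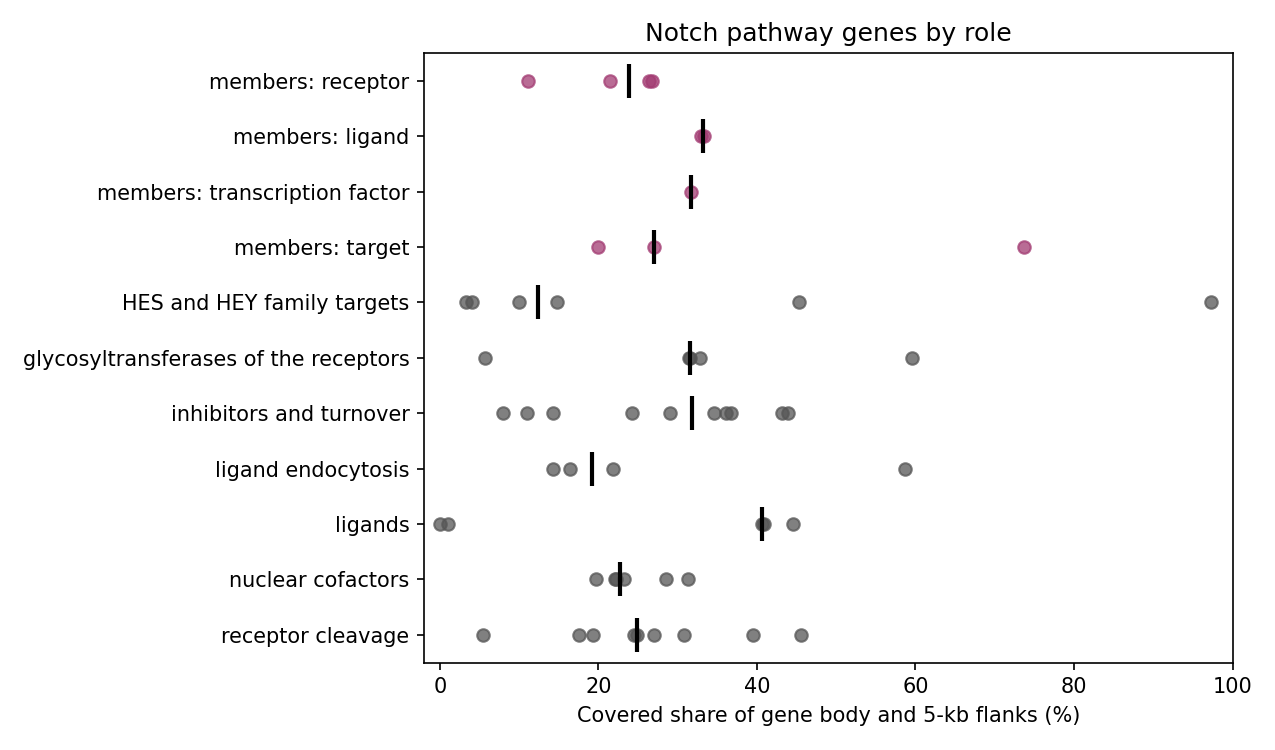
Covered share of the gene body and 5-kb flanks in percent for each pathway gene (points) by role, with the median of each role (black line), members in purple and the other genes in grey. Hes6 at 97.2% and Hey2 at 73.7% are the highest points.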

How the data were processed

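In each group the authors sequenced 2 BRG1 precipitates and 2 inputs. Per the methods and the labels, reads were mapped to mm9 with Bowtie 1.0.0 and regions called with MACS2 2.0.10, and the deposited list holds only region positions in bp. The methods cite the bdgcomp step but give neither its settings nor how the duplicates entered it, and the deposited name looks like that of a 2-condition comparison with a cutoff of 3 in an unstated unit, so the exact call is unknown. Region lengths up to 100 kb are multiples of 30 bp.

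Regions were counted with at least 1 bp of overlap over GENCODE mm9 genes, using Python 3.11.15, numpy 2.4.6, pandas 2.3.3 and bedtools 2.31.1. Percentiles give ties a weight of 0.5. Functions were tested on simulated data. Exon and intron numbers follow the transcript with the longest coding sequence, and covered shares of exons take the exons of all transcripts. All members are described, and other pathway genes by role, with the 3 highest and 3 lowest named. The members and lists were chosen with earlier results of these data known. RefSeq promoters (GRCm38.p6) were matched for 8 members and only compared, and printed sequences come from mm9. The sequence of a region near Hey1 is not reported here.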

Additional observations from a re-analysis of the deposited data

How the results depend on the processing

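Depth is unknown, no replicate was separable, and intervals on percentiles cover counting error only. The 11 other settings changed the rule for regions, the flanks, the definition of the TSS or the comparison genes. Of 45 recomputed counts and medians, 44 stayed within 1.5 times the value reported, though some could not change: the count over the TSS takes no flank, and no region longer than 100 kb met a window of a member. The exception was the median covered share around the TSS, which fell from 23.4% to 15.1% without regions shorter than the median length. The percentiles of single members moved more. Of 190 recomputed percentiles, 54 left the exact binomial interval of the value reported. Around the gene body and flanks Hey2 ranged from 66.5 to 100, the lowest being regions per kb, Notch3 from 3.5 to 10, Jag1 from 63 to 98.25 and Dll4 from 49.5 to 93. Around the TSS Hey2 ranged from 59.5 to 100, Notch1 from 4 to 18.5 and Notch4 from 15.75 to 65.5. The list holds no scores to filter on and no replicates to leave out. No paired analysis was possible because the list does not separate the duplicates and no test was made.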
